A study of Arabidopsis with 36 samples.

Results

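Glucosinolates are sulfur-rich glucosides of the cabbage order, and the 10 genes described here act at the end of their life. Of the 10, 4 encode myrosinases that break glucosinolates down. Another 3 encode specifier or modifier proteins that bear on what the breakdown products become. The other 3 encode methyltransferases that use halide and thiocyanate ions. The genes were chosen by their locus identifiers, 10 of the 24532 genes with values in the table, and their RPKM (reads scaled by gene length and by library total) over the 12 groups of genotype, organ and temperature had been seen when they were chosen. Their levels and fold changes are therefore given as a description, and whether one passed the fit over all genes describes these libraries and supports nothing further.

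A myrosinase removes the glucose, and the unstable remainder rearranges to an isothiocyanate unless a specifier protein diverts it. ESP (AT1G54040) directs it to epithionitriles and nitriles, NSP1 (AT3G16400) to simple nitriles, and ESM1 (AT3G14210) favours isothiocyanates over nitriles. TGG1 (AT5G26000) and TGG2 (AT5G25980) are the classical myrosinases of aerial organs, known from myrosin cells and guard cells, while TGG4 (AT1G47600) and TGG5 (AT1G51470) are known from roots. HOL1 (AT2G43910), HOL2 (AT2G43920) and HOL3 (AT2G43940), named HARMLESS TO OZONE LAYER, encode S-adenosylmethionine-dependent methyltransferases of halide ions and of thiocyanate, an ion that indolic glucosinolates release.

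The seedlings were Arabidopsis thaliana of the hy5-215 mutant, which lacks functional HY5 (a bZIP transcription factor of light and temperature signalling), of the chl1-5 mutant of the nitrate transporter gene NRT1.1, and of the wild type Col-0. All were grown for 4 days at 21 °C and then kept for 5 days at either 28 °C or 21 °C. Roots and shoots were sequenced apart, with 3 libraries for each of the 12 groups and 36 in all, and each root library pooled about 50 roots. Recovered totals ranged from 51.8 to 89.3 M reads a library.

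The targeted genes were checked against the labels first. In roots, NRT1.1 had 0 to 4 reads in each chl1-5 library. The shoot libraries labelled chl1-5 went against their label, with NRT1.1 at 18.5 to 19.4 RPKM at 28 °C and 12.97 to 13.8 RPKM at 21 °C, against 7.19 to 7.53 and 17.5 to 17.9 RPKM in Col-0 shoots at the same temperatures. They are called the shoots labelled chl1-5 throughout, and fits on the compared groups alone, without them, changed none of the shoot calls for the 10 genes. HY5 RNA in hy5-215 roots was 6.34 to 7.17 RPKM at 28 °C and 7.08 to 8.30 RPKM at 21 °C, against 38.2 to 50.3 and 24.1 to 27.04 RPKM in Col-0 roots. In shoots it was 4.76 to 5.68 RPKM at 28 °C and 5.49 to 5.96 RPKM at 21 °C in hy5-215, against 7.93 to 8.25 and 4.67 to 4.99 RPKM in Col-0, so that at 21 °C hy5-215 shoots held slightly more of it. A chosen set of 5 root markers summed to 203 to 327 RPKM in the root libraries and to 8.01 to 23.9 RPKM in the shoot libraries. Col-0 root replicate 2 at 21 °C held 0.0640% of the shoot level for CA1, 0.0584% for LHCB1.4 and 0.0452% for LHCB1.1. The leaf genes RBCS1A and PSBR did not set it apart, at 0.271% and 3.00%. They were at 0.256% and 3.13% in replicate 1 and at 0.216% and 2.74% in replicate 3. Col-0 root replicate 2 at 28 °C held 0.0123%, 0.0225% and 0.0633% for CA1, LHCB1.4 and LHCB1.1. Whether shoot RNA was carried over was not tested.

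A log2 fold change is a difference of mean log2(RPKM + 1), which understates the change of low genes, and its error is a standard error (SE). The error of an RPKM mean is a standard deviation (SD) over n = 3 libraries. A difference "passed" when the adjusted p of limma over all genes tested in that organ was under 0.05, and a gene was a differentially expressed gene (DEG) when its log2 fold change also exceeded 1 in size. Genes with a mean under 1 RPKM in an organ were not tested there, which left HOL1, HOL2, HOL3, TGG4, TGG5 and NSP1 in roots and all but TGG4 and TGG5 in shoots. HOL2 reached that mean in roots only through the 28 °C libraries of chl1-5 and Col-0. Because bulk RNA was measured, fewer cells of a type and less RNA per cell cannot be told apart.

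Below, warm stands for 28 °C and cool for 21 °C. HOL2 was the one of the 10 genes that separated warm from cool roots most widely. It stood at 14.3 to 42.2 RPKM at 28 °C and below 1 RPKM at 21 °C in chl1-5 and Col-0 roots, and stayed under 4 RPKM in every hy5-215 root library. HOL1 was at 15.7 to 22.2 RPKM in hy5-215 roots at either temperature, against 120.0 to 149 RPKM in Col-0 roots. In hy5-215 shoots, Col-0 shoots and those labelled chl1-5 the specifier NSP1 rose at 28 °C and the myrosinases TGG1 and TGG2 fell, and ESP rose more in hy5-215 than in Col-0.

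HOL1, the best studied of the methyltransferases, was the most abundant of them in both organs though narrowly so beside HOL3 in hy5-215 roots. HOL1 in hy5-215 roots had 19.99, 15.7 and 18.9 RPKM at 28 °C, against 22.2, 21.8 and 21.8 RPKM at 21 °C. HOL1 in chl1-5 roots had 132, 124 and 125 RPKM at 28 °C, against 112, 121 and 122 RPKM at 21 °C. HOL1 in Col-0 roots had 130.2, 128 and 120.0 RPKM at 28 °C, against 149, 130.1 and 133 RPKM at 21 °C. All 6 hy5-215 root libraries lay below all 12 others, and within hy5-215 the 28 °C libraries lay below those at 21 °C. Between hy5-215 and Col-0 roots the log2 fold change was -2.73 ± 0.07 at 28 °C and -2.59 ± 0.07 at 21 °C, with means 6.94-fold and 6.26-fold higher in Col-0. Between 28 °C and 21 °C it was -0.27 ± 0.07 in hy5-215, which passed, and 0.10 ± 0.07 in chl1-5 and -0.12 ± 0.07 in Col-0, which did not. In chl1-5 over Col-0 roots at 21 °C the log2 fold change was -0.22 ± 0.07, which passed, but the pass was lost without replicate 1 of either group (-0.17 without that of chl1-5 and -0.16 without that of Col-0).

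Shoots showed a much smaller difference between hy5-215 and Col-0 for this gene. HOL1 in hy5-215 shoots had 66.2, 67.6 and 65.4 RPKM at 28 °C, against 71.7, 77.7 and 74.3 RPKM at 21 °C. HOL1 in the shoots labelled chl1-5 had 74.1, 78.3 and 77.5 RPKM at 28 °C, against 95.4, 93.9 and 98.2 RPKM at 21 °C. HOL1 in Col-0 shoots had 89.9, 81.9 and 82.7 RPKM at 28 °C, against 95.3, 94.1 and 90.8 RPKM at 21 °C. In each shoot group the 28 °C libraries lay below the 21 °C libraries with no overlap, and the log2 fold changes were -0.16 ± 0.04 in hy5-215, -0.32 ± 0.04 in the shoots labelled chl1-5 and -0.14 ± 0.04 in Col-0. Set over Col-0, hy5-215 shoots had log2 fold changes of -0.35 ± 0.04 at 28 °C and -0.32 ± 0.04 at 21 °C. The root over shoot ratio of the means was 0.274 at 28 °C and 0.294 at 21 °C in hy5-215, and 1.49 and 1.47 in Col-0, so the level was higher in shoots in hy5-215 and higher in roots in Col-0.

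HOL2, the neighbouring methyltransferase gene, changed with temperature on another scale. HOL2 in hy5-215 roots had 1.11, 3.75 and 0.502 RPKM at 28 °C, against 0.508, 0.360 and 0.364 RPKM at 21 °C. HOL2 in chl1-5 roots had 27.7, 14.3 and 34.6 RPKM at 28 °C, against 0.0744, 0.128 and 0.136 RPKM at 21 °C. HOL2 in Col-0 roots had 32.3, 42.2 and 26.03 RPKM at 28 °C, against 0.676, 0.367 and 0.382 RPKM at 21 °C. The warm and cool libraries were far apart in chl1-5 and Col-0 and overlapped in hy5-215, where replicate 2 at 28 °C stood above the other hy5-215 libraries. The fold of the means was 226 in chl1-5 and 70.6 in Col-0, and the log2 fold change was 4.49 ± 0.33 and 4.53 ± 0.33. Of the 17742 genes tested in roots, the Col-0 value ranked 1 from the highest and the chl1-5 value ranked 2. In hy5-215 it was 0.81 ± 0.33, which passed, but the pass was lost with the replicate number as a block (0.81), with both other scalings, without the filter on low values, with the compared groups only and with voom on recovered reads. It was also lost in 4 of 6 fits without a library, with 0.34 without replicate 2 at 28 °C.

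The difference between the responses of hy5-215 and Col-0 roots, -3.72 ± 0.47 for HOL2, was the lowest of all 17742 genes tested. At 28 °C hy5-215 roots had 1.79 ± 1.73 RPKM, against 33.5 ± 8.17 RPKM in Col-0 roots, a log2 fold change of -3.78 ± 0.33. At 21 °C hy5-215 roots had 0.411 ± 0.0842 RPKM, against 0.475 ± 0.174 RPKM in Col-0 roots, and those groups overlapped. The difference between the chl1-5 and Col-0 responses was -0.04 ± 0.47, which did not pass and whose sign depended on the pseudocount. Cool chl1-5 roots had 0.113 ± 0.0337 RPKM (12 to 24 reads), below all cool Col-0 roots (63 to 114 reads). The log2 fold change between them, -0.40, did not pass.

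Leaf RNA markers were measured beside this result. The summed level of 5 leaf mesophyll markers in roots was 13.1 to 25.7 RPKM at 28 °C and 26.3 to 31.4 RPKM at 21 °C in hy5-215. It was 296 to 381 RPKM at 28 °C and 88.6 to 111 RPKM at 21 °C in chl1-5. Col-0 roots summed to 362 to 479 RPKM at 28 °C and 122 to 144 RPKM at 21 °C. The sum was thus high in the same root groups as HOL2, and nearly all of it came from RBCS1A and PSBR. Of the 5, RBCS1A, which encodes a Rubisco small subunit, and PSBR, a photosystem II protein gene, were high enough to test. RBCS1A was 2.18 to 11.5 RPKM at 28 °C and 2.36 to 5.09 RPKM at 21 °C in hy5-215 roots, against 189 to 252 and 33.9 to 42.6 RPKM in Col-0 roots, where it rose by 2.47 ± 0.35 (adjusted p = 1.51e-05) by limma. PSBR rose by 1.05 ± 0.12 (adjusted p = 1.42e-06) in Col-0 roots and by 1.19 ± 0.12 (adjusted p = 3.22e-07) in chl1-5 roots, and fell by 0.88 ± 0.12 (adjusted p = 1.28e-05) in hy5-215 roots. In the 3 warm hy5-215 root libraries RBCS1A was 9.15, 2.18 and 11.5 RPKM, so it was lowest in replicate 2, where HOL2 was highest. CA1, a carbonic anhydrase gene, did not exceed 0.632 RPKM and LHCB1.4, an antenna protein gene, did not exceed 0.864 RPKM in any root library. LHCB1.1, its close relative, was 3.40 RPKM in Col-0 replicate 2 at 21 °C, where HOL2 was lowest among cool Col-0 roots (0.367 RPKM). It was 2.74 RPKM in Col-0 replicate 2 at 28 °C, where HOL2 was highest. The Col-0 root means of CA1, LHCB1.4 and LHCB1.1 were 0.0370, 0.171 and 1.11 RPKM at 28 °C, against 0.226, 0.344 and 1.38 RPKM at 21 °C. In chl1-5 roots LHCB1.4 and LHCB1.1 were also lower at 28 °C, while CA1 was at 0.0269 against 0.0244 RPKM. The part of these cells or of this RNA in the HOL2 result was not tested. The Col-0 log2 fold change of HOL2 was 4.35 without replicate 2 at 28 °C and 4.48 without replicate 2 at 21 °C.

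In shoots, HOL2 was low and moderately higher in warmth. HOL2 in hy5-215 shoots had 6.34, 6.63 and 5.90 RPKM at 28 °C, against 4.98, 4.70 and 4.68 RPKM at 21 °C. HOL2 in the shoots labelled chl1-5 had 10.7, 10.3 and 10.7 RPKM at 28 °C, against 7.61, 7.91 and 7.60 RPKM at 21 °C. HOL2 in Col-0 shoots had 12.2, 11.2 and 11.5 RPKM at 28 °C, against 6.39, 6.45 and 6.35 RPKM at 21 °C. No shoot group overlapped between temperatures, and HOL2 rose by 0.33 ± 0.04 in hy5-215, 0.41 ± 0.04 in the shoots labelled chl1-5 and 0.77 ± 0.04 in Col-0. Set against the Col-0 response, that of hy5-215 differed by -0.44 ± 0.05 and that of the shoots labelled chl1-5 by -0.36 ± 0.05, and both differences passed.

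HOL3, the third methyltransferase, lay the other way. HOL3 in hy5-215 roots had 14.9, 14.8 and 15.1 RPKM at 28 °C, against 18.7, 17.1 and 16.8 RPKM at 21 °C. HOL3 in chl1-5 roots had 13.9, 14.1 and 15.1 RPKM at 28 °C, against 16.5, 17.3 and 17.1 RPKM at 21 °C. HOL3 in Col-0 roots had 13.6, 13.6 and 14.4 RPKM at 28 °C, against 16.2, 17.2 and 16.9 RPKM at 21 °C. Warm roots lay below cool roots in every genotype with no overlap, and the log2 fold changes of -0.21 ± 0.04 in hy5-215, -0.23 ± 0.04 in chl1-5 and -0.26 ± 0.04 in Col-0 each passed. No mutant differed from Col-0 in roots by a passing amount at either temperature, though hy5-215 passed at 28 °C (0.13) without Col-0 replicate 3.

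HOL3 was weaker in shoots, where the groups differed in their response. HOL3 in hy5-215 shoots had 2.38, 2.23 and 2.43 RPKM at 28 °C, against 3.3597, 3.31 and 3.38 RPKM at 21 °C. HOL3 in the shoots labelled chl1-5 had 2.21, 2.07 and 2.29 RPKM at 28 °C, against 3.72, 3.33 and 3.56 RPKM at 21 °C. HOL3 in Col-0 shoots had 2.76, 2.77 and 2.93 RPKM at 28 °C, against 2.60, 2.65 and 3.27 RPKM at 21 °C. The warm and cool libraries were apart in hy5-215 and in the shoots labelled chl1-5 and overlapped in Col-0. HOL3 fell by 0.38 ± 0.05 in hy5-215 shoots and by 0.51 ± 0.05 in those labelled chl1-5, and in Col-0 the value was -0.0050 ± 0.05. The differences from the Col-0 response, -0.37 ± 0.08 and -0.50 ± 0.08, both passed. HOL1, HOL2 and HOL3 have similar sequences, and how reads that match several places were counted is not given in the sources used here, so the split of reads among them is uncertain.

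**Figure D1:**
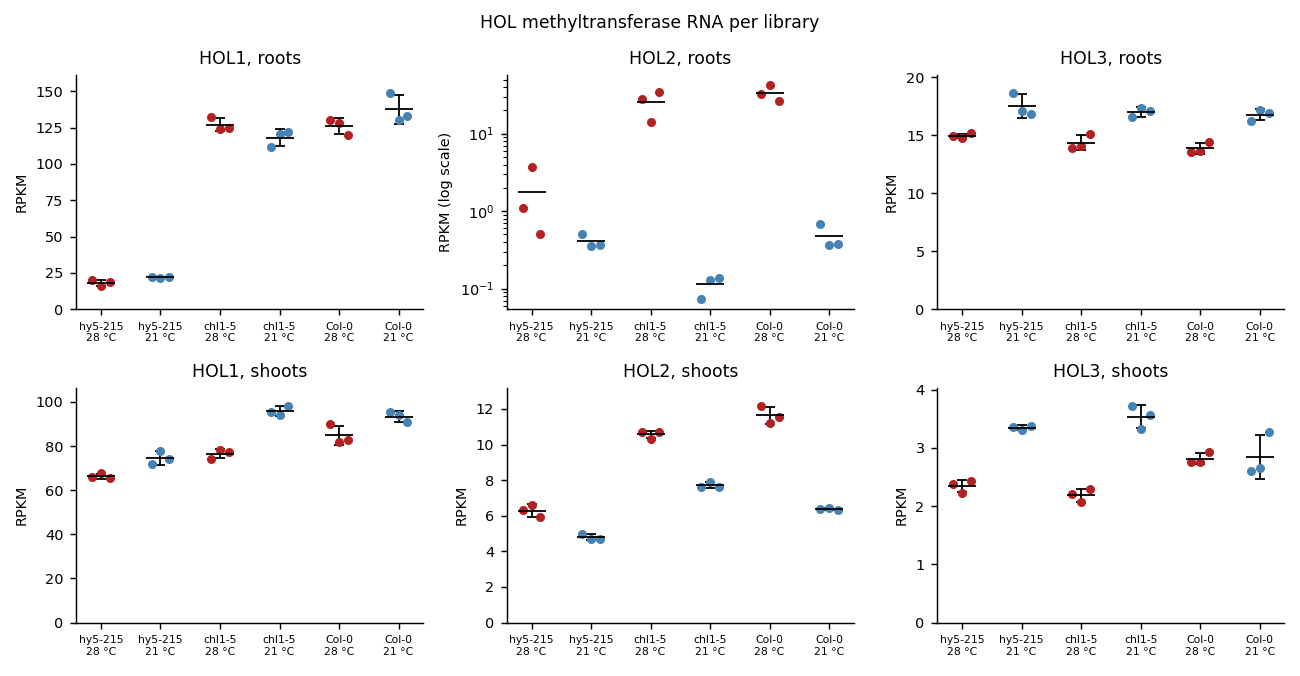
RPKM of HOL1, HOL2 and HOL3 in roots (top) and shoots (bottom) for each genotype label at 28 °C (red) and 21 °C (blue), with 1 point for each of 3 libraries, a bar at the mean and error bars of 1 SD; the HOL2 root panel has a log axis and no error bars. HOL1 is lowest in hy5-215 roots, HOL2 lies above 14 RPKM in all warm chl1-5 and Col-0 root libraries and below 1 RPKM in the cool ones, and HOL3 is lower at 28 °C in all roots.

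The myrosinases divided by organ. TGG1 and TGG2 were detected almost only in shoots, with at most 0.345 and 0.0757 RPKM in a root library, both in Col-0 replicate 2 at 21 °C, which contributed 74 of the 117 TGG1 reads and 17 of the 21 TGG2 reads found in all 18 root libraries. TGG4 and TGG5 were root genes, at no more than 0.126 and 0.164 RPKM in any shoot library.

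TGG1, the most abundant myrosinase gene, ran between 342 and 534 RPKM in shoots. TGG1 in hy5-215 shoots had 348, 346 and 342 RPKM at 28 °C, against 456, 452 and 458 RPKM at 21 °C. TGG1 in the shoots labelled chl1-5 had 390.1, 394 and 392 RPKM at 28 °C, against 518, 520.3 and 531 RPKM at 21 °C. TGG1 in Col-0 shoots had 353, 342 and 348 RPKM at 28 °C, against 534, 534 and 521 RPKM at 21 °C. Warm shoots lay well below cool shoots in each group, and TGG1 fell by 0.40 ± 0.02 in hy5-215, by 0.42 ± 0.02 in the shoots labelled chl1-5 and by 0.61 ± 0.02 in Col-0 on the log2 scale. The fall was smaller than in Col-0 by 0.21 ± 0.03 in hy5-215 and by 0.19 ± 0.03 in the shoots labelled chl1-5. At 21 °C hy5-215 shoots had less TGG1 than Col-0 shoots (-0.22 ± 0.02), while at 28 °C the difference did not pass.

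TGG2 encodes a second aerial myrosinase that is partly redundant with TGG1. TGG2 in hy5-215 shoots had 85.1, 87.1 and 86.7 RPKM at 28 °C, against 118, 126 and 125 RPKM at 21 °C. TGG2 in the shoots labelled chl1-5 had 53.7, 57.2 and 55.7 RPKM at 28 °C, against 96.4, 95.7 and 99.97 RPKM at 21 °C. TGG2 in Col-0 shoots had 44.1, 41.1 and 42.7 RPKM at 28 °C, against 109.5, 108 and 105 RPKM at 21 °C. Cool shoots lay between 95.7 and 126 RPKM in all groups, and the warm ones ran from Col-0 as the lowest to hy5-215 as the highest with no overlap between groups. TGG2 fell by 0.51 ± 0.03 in hy5-215, 0.80 ± 0.03 in the shoots labelled chl1-5 and 1.31 ± 0.03 in Col-0. The response differed from that of Col-0 by 0.81 ± 0.04 in hy5-215 and by 0.52 ± 0.04 in the shoots labelled chl1-5. At 28 °C the hy5-215 shoots had 2.02 times the Col-0 mean, a log2 fold change just at the limit of 1 (1.00 ± 0.03).

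The ratio of TGG1 to TGG2 differed between the temperatures. In hy5-215 shoots it was 4.001 ± 0.0771 at 28 °C and 3.70 ± 0.143 at 21 °C. In the shoots labelled chl1-5 it was 7.06 ± 0.190 at 28 °C and 5.38 ± 0.0617 at 21 °C. Col-0 shoots had 8.15 ± 0.165 at 28 °C and 4.92 ± 0.0482 at 21 °C. The ratio was higher at 28 °C in every shoot group, with no overlap. Reads that match both genes could be split between them in a way that the sources used here do not give.

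Markers of guard cells, known to hold these myrosinases as myrosin cells are, were measured beside them. Of the 6 used, FAMA is also a myrosin cell gene, so the sum says little of myrosin cells. The summed level of these 6 markers in shoots was 36.3 to 41.5 RPKM at 28 °C and 93.6 to 106 RPKM at 21 °C in hy5-215. It was 68.3 to 72.3 RPKM at 28 °C and 119 to 125 RPKM at 21 °C in the shoots labelled chl1-5. Col-0 shoots summed to 66.9 to 75.8 RPKM at 28 °C and 102 to 106 RPKM at 21 °C. The sum was thus lower at 28 °C in every shoot group with no overlap, a direction that TGG1 and TGG2 shared. The order of the genotypes differed. The warm sum was lowest in hy5-215, where TGG1 and TGG2 fell least (-0.40 and -0.51, against -0.61 and -1.31 in Col-0). Most of the sum came from AT1G22690, known as GC1, a guard cell gene. By limma GC1 changed by -1.55 ± 0.06 (adjusted p = 5.18e-14) in hy5-215 and -0.57 ± 0.06 (adjusted p = 6.18e-08) in Col-0. FAMA, the bHLH factor that sets guard cell and myrosin cell identity, changed by -0.23 ± 0.09 (adjusted p = 0.0204) in Col-0. Of the 6 markers, 3 were lower in hy5-215, 3 lower and 1 higher in the shoots labelled chl1-5 and 4 lower in Col-0 by the test. Of all genes tested, 30.4% were lower and 46.8% higher in hy5-215 shoots. These shares were 28.4% and 49.9% in the shoots labelled chl1-5 and 30.7% and 46.2% in Col-0. In the root libraries all 6 together summed to 0.541 to 1.31 RPKM. The part of these cells in the myrosinase levels was not tested.

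TGG4 and TGG5 are the root myrosinases and lie apart on chromosome 1. TGG4 in hy5-215 roots had 9.60, 9.58 and 9.65 RPKM at 28 °C, against 14.1, 14.5 and 13.1 RPKM at 21 °C. TGG4 in chl1-5 roots had 14.2, 17.6 and 15.9 RPKM at 28 °C, against 12.5, 13.3 and 15.3 RPKM at 21 °C. TGG4 in Col-0 roots had 15.4, 10.4 and 13.8 RPKM at 28 °C, against 12.1, 13.2 and 14.3 RPKM at 21 °C. Only in hy5-215 roots did the temperatures not overlap, and its 3 warm libraries lay below every other root library. TGG4 fell by 0.49 ± 0.11 in hy5-215, while the values were 0.20 ± 0.11 in chl1-5 and -0.02 ± 0.11 in Col-0. The difference from the Col-0 response was -0.47 ± 0.15, a pass that was lost in 9 of 12 fits that left out a library.

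TGG5, the other root gene, followed TGG4. TGG5 in hy5-215 roots had 9.01, 8.83 and 9.02 RPKM at 28 °C, against 17.1, 17.98 and 16.7 RPKM at 21 °C. TGG5 in chl1-5 roots had 13.7, 16.1 and 14.003 RPKM at 28 °C, against 13.9, 15.6 and 17.6 RPKM at 21 °C. TGG5 in Col-0 roots had 15.2, 10.1 and 13.5 RPKM at 28 °C, against 14.9, 15.7 and 17.5 RPKM at 21 °C. As for TGG4, the 3 warm hy5-215 libraries lay below every other root library, and the temperatures overlapped in the other genotypes. TGG5 fell by 0.87 ± 0.11 in hy5-215, and the values were -0.10 ± 0.11 in chl1-5 and -0.31 ± 0.11 in Col-0, where the pass was lost without replicate 2 at 28 °C (-0.15) or without replicate 3 at 21 °C (-0.24), and with the compared groups only. The hy5-215 response differed from that of Col-0 by -0.57 ± 0.15. At 28 °C the log2 fold change of hy5-215 over Col-0 roots was -0.40 ± 0.11 for TGG4 and -0.46 ± 0.11 for TGG5, which both passed, and neither gene differed by a passing amount at 21 °C. The root marker sum was also lower in warm roots, at 203 to 208 RPKM at 28 °C and 304 to 327 RPKM at 21 °C in hy5-215, against 219 to 227 and 276 to 303 RPKM in Col-0. In chl1-5 roots the marker sum was 208 to 229 RPKM at 28 °C and 283 to 305 RPKM at 21 °C. Of these 5 markers 4 were lower and 1 higher in hy5-215 and in Col-0, and 3 were lower in chl1-5. Of all genes tested, 24.5% were lower and 36.5% higher in hy5-215 roots, 29.2% and 37.0% in Col-0 roots and 29.1% and 38.3% in chl1-5 roots. The part of these markers was not tested.

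The balance within the pair shifted the same way in all roots. The ratio of TGG4 to TGG5 in hy5-215 was 1.07 ± 0.0108 at 28 °C and 0.806 ± 0.0224 at 21 °C. In chl1-5 it was 1.09 ± 0.0503 at 28 °C and 0.874 ± 0.0229 at 21 °C. Col-0 had 1.02 ± 0.0108 at 28 °C and 0.827 ± 0.0156 at 21 °C. TGG4 was the higher at 28 °C and TGG5 the higher at 21 °C in every genotype, with no overlap of the ratios between temperatures. The genes are close copies, so the split of reads between them is uncertain.

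**Figure D2:**
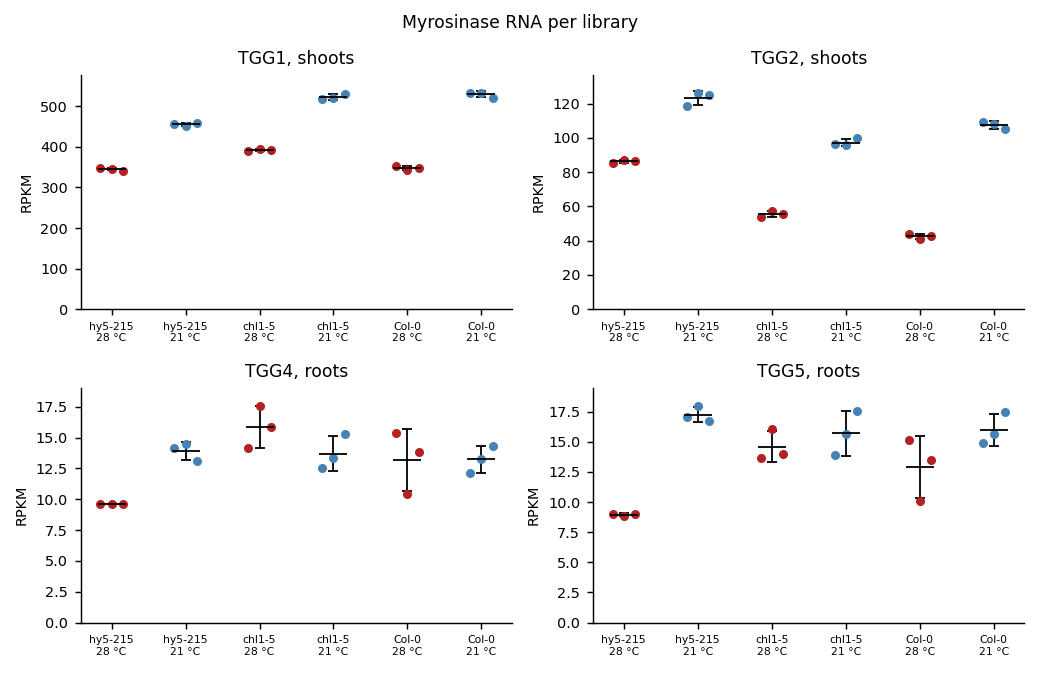
RPKM of the myrosinase genes TGG1 and TGG2 in shoots and TGG4 and TGG5 in roots for each genotype label at 28 °C (red) and 21 °C (blue), with 1 point for each of 3 libraries, a bar at the mean and error bars of 1 SD. Warm shoots lie below cool shoots for TGG1 and TGG2, with TGG2 lowest in warm Col-0 shoots, and TGG4 and TGG5 separate the temperatures in hy5-215 roots.

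NSP1, a nitrile specifier protein gene, was the most abundant of the 10 in roots and exceeded ESP and ESM1 in shoots. NSP1 in hy5-215 roots had 496, 454 and 520.4 RPKM at 28 °C, against 361, 359 and 399 RPKM at 21 °C. NSP1 in chl1-5 roots had 568, 651 and 524 RPKM at 28 °C, against 927, 783 and 803 RPKM at 21 °C. NSP1 in Col-0 roots had 414, 412 and 477 RPKM at 28 °C, against 463, 409.7 and 534 RPKM at 21 °C. Roots thus gave a different picture in each genotype: warm above cool in hy5-215, warm below cool in chl1-5 and overlap in Col-0. NSP1 rose by 0.39 ± 0.10 in hy5-215 and fell by 0.53 ± 0.10 in chl1-5, and its value in Col-0 was -0.11 ± 0.10. The hy5-215 response differed from that of Col-0 by a passing 0.50 ± 0.14, lost in 4 of 12 fits that left out a library, and the chl1-5 response by -0.42 ± 0.14, which did not pass. Cool chl1-5 roots were above cool Col-0 roots by 0.84 ± 0.10.

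NSP1 was higher in warm shoots of hy5-215, of Col-0 and of those labelled chl1-5. NSP1 in hy5-215 shoots had 462, 464 and 466 RPKM at 28 °C, against 173, 184 and 184 RPKM at 21 °C. NSP1 in the shoots labelled chl1-5 had 325, 332 and 321 RPKM at 28 °C, against 206, 204 and 212 RPKM at 21 °C. NSP1 in Col-0 shoots had 323, 313 and 314 RPKM at 28 °C, against 169, 167 and 164 RPKM at 21 °C. The temperatures were far apart in each group, and NSP1 rose by 1.36 ± 0.03 in hy5-215, 0.65 ± 0.03 in the shoots labelled chl1-5 and 0.92 ± 0.03 in Col-0. The rise was larger than that of Col-0 by 0.44 ± 0.04 in hy5-215, and the response of the shoots labelled chl1-5 differed by -0.27 ± 0.04.

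ESP, the epithiospecifier gene, was a shoot gene, with 6 reads in all over the 18 root libraries. ESP in hy5-215 shoots had 14.8, 15.8 and 15.4 RPKM at 28 °C, against 6.79, 6.82 and 7.04 RPKM at 21 °C. ESP in the shoots labelled chl1-5 had 5.67, 5.54 and 5.72 RPKM at 28 °C, against 4.81, 4.77 and 4.91 RPKM at 21 °C. ESP in Col-0 shoots had 5.43, 5.60 and 5.28 RPKM at 28 °C, against 4.85, 5.03 and 4.70 RPKM at 21 °C. Every hy5-215 shoot library lay above every other shoot library, and the warm hy5-215 shoots stood alone above 14 RPKM. ESP rose by 1.05 ± 0.03 in hy5-215, 0.19 ± 0.03 in the shoots labelled chl1-5 and 0.14 ± 0.03 in Col-0, where the pass was lost with median of ratios (0.07) and quantile (0.06) scaling. With quantile scaling it was also lost in the shoots labelled chl1-5 (0.08). The hy5-215 response was larger than that of Col-0 by 0.91 ± 0.04. Over Col-0, hy5-215 shoots were higher by 1.34 ± 0.03 at 28 °C and 0.43 ± 0.03 at 21 °C, 2.82-fold and 1.42-fold by the means. The Col-0 accession is known for little epithiospecifier activity.

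ESM1, an epithiospecifier modifier, varied least of the 8 genes tested in shoots. ESM1 in hy5-215 shoots had 51.0, 53.0 and 51.2 RPKM at 28 °C, against 60.3, 59.7 and 60.4 RPKM at 21 °C. ESM1 in the shoots labelled chl1-5 had 54.7, 54.7 and 54.8 RPKM at 28 °C, against 55.2, 56.2 and 54.9 RPKM at 21 °C. ESM1 in Col-0 shoots had 49.3, 51.1 and 52.1 RPKM at 28 °C, against 60.1, 59.1 and 60.0 RPKM at 21 °C. It fell by 0.21 ± 0.02 in hy5-215 and by 0.23 ± 0.02 in Col-0 with no overlap, and its value in the shoots labelled chl1-5 was -0.02 ± 0.02, a difference from the Col-0 response of 0.21 ± 0.03. In roots it lay between 0.00457 and 0.184 RPKM, 1 to 38 reads a library, under the limit for testing. Even there the warm root libraries of each genotype lay below the cool ones, in hy5-215 at 0.00555 to 0.0390 RPKM at 28 °C, against 0.0833 to 0.146 RPKM at 21 °C.

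NSP1 stood above ESP by a ratio that also moved with temperature in shoots. It was 30.3 ± 0.912 at 28 °C and 26.2 ± 0.745 at 21 °C in hy5-215. In the shoots labelled chl1-5 it was 57.8 ± 1.95 at 28 °C and 42.9 ± 0.238 at 21 °C. Col-0 shoots had 58.3 ± 2.03 at 28 °C and 34.3 ± 1.01 at 21 °C. The ratio was higher in the warm shoots of each group and lowest in hy5-215.

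**Figure D3:**
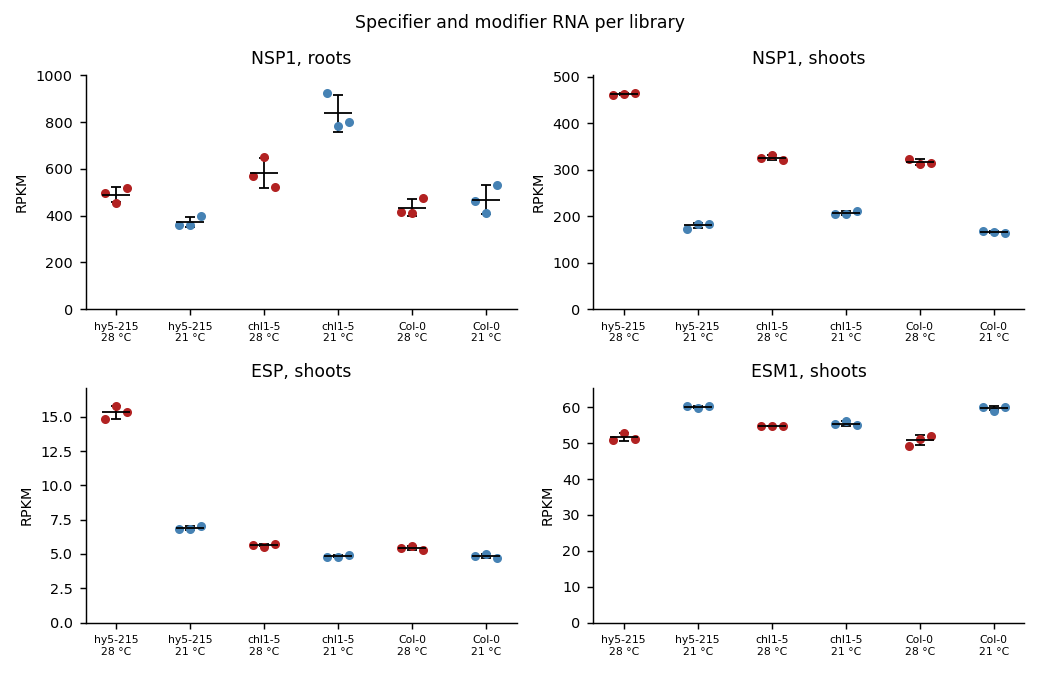
RPKM of the specifier gene NSP1 in roots and shoots and of ESP and ESM1 in shoots for each genotype label at 28 °C (red) and 21 °C (blue), with 1 point for each of 3 libraries, a bar at the mean and error bars of 1 SD. NSP1 is higher at 28 °C in all 3 shoot groups, warm hy5-215 shoots stand alone for ESP, and ESM1 stays between 49.3 and 60.4 RPKM.

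The counts over the 10 genes are set beside the share of all genes tested, and because the genes were chosen with these groups known, nothing is read from setting them so. In warm over cool hy5-215 roots, 6 of the 6 genes tested passed, 2 higher and 4 lower, where 61.0% of all genes tested passed, 36.5% higher and 24.5% lower. In chl1-5 roots 3 of 6 passed, 1 higher and 2 lower, where 67.4% of all genes tested passed, 38.3% higher and 29.1% lower. In Col-0 roots 3 of 6 passed, 1 higher and 2 lower, where 66.3% of all genes tested passed, 37.0% higher and 29.2% lower. HOL2 and HOL3 passed in all 3 genotypes, the first higher and the second lower. HOL2 was the single DEG among the 10 in chl1-5, where 5.34% of all genes tested were DEGs, and in Col-0, where 4.23% were.

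In warm over cool hy5-215 shoots, 8 of the 8 genes tested passed, 3 higher and 5 lower, where 77.3% of all genes tested passed, 46.8% higher and 30.4% lower. In the shoots labelled chl1-5, 7 of 8 passed, 3 higher and 4 lower, where 78.3% of all genes tested passed, 49.9% higher and 28.4% lower. In Col-0 shoots 7 of 8 passed, 3 higher and 4 lower, where 76.9% of all genes tested passed, 46.2% higher and 30.7% lower. HOL2, ESP and NSP1 were the genes that rose in every shoot comparison, and HOL1, TGG1 and TGG2 fell in each. ESP and NSP1 were DEGs in hy5-215 shoots, where 6.15% of all genes tested were, and TGG2 was a DEG in Col-0 shoots, where 5.24% were.

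The difference between responses asks whether a mutant answered temperature as Col-0 did, and the comparisons of hy5-215 and of chl1-5 share the Col-0 libraries. In hy5-215 minus Col-0 roots 4 of 6 passed, 1 higher and 3 lower, where 20.4% of all genes tested passed, 9.95% higher and 10.4% lower. NSP1 was the higher one, and HOL2, TGG4 and TGG5 were lower. In chl1-5 minus Col-0 roots limma passed 0 of 6, as did voom on the recovered reads, while 2 of 6 had an unadjusted p under 0.05, where 2.35% of all genes tested passed, 0.975% higher and 1.38% lower. In hy5-215 minus Col-0 shoots 6 of 8 passed, 4 higher and 2 lower, where 50.3% of all genes tested passed, 27.4% higher and 22.8% lower. In the shoots labelled chl1-5 minus Col-0 shoots 7 of 8 passed, 3 higher and 4 lower, where 56.3% of all genes tested passed, 30.5% higher and 25.8% lower. HOL2 and HOL3 gave lower and TGG1 and TGG2 higher values than Col-0 in both shoot comparisons, and NSP1 was higher in hy5-215 and lower in the shoots labelled chl1-5.

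**Figure D4:**
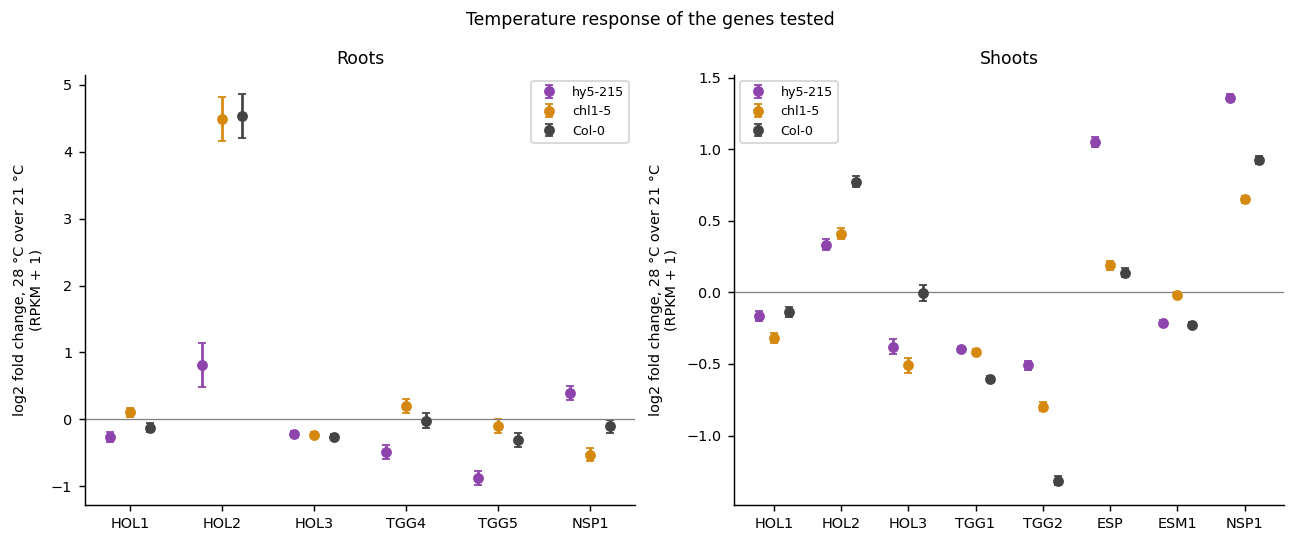
Log2 fold change of 28 °C over 21 °C on the log2(RPKM + 1) scale, with error bars of 1 SE, for each of the 10 genes tested in roots and in shoots, by genotype label. HOL2 in chl1-5 and Col-0 roots lies above 4, while hy5-215 roots are at 0.81, and TGG2 in Col-0 shoots is at -1.31.

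Set against Col-0 at the same temperature, hy5-215 roots at 28 °C had 4 of 6 genes passing, all 4 lower, where 55.0% of all genes tested passed, 32.2% higher and 22.8% lower. They were HOL1, HOL2, TGG4 and TGG5, and HOL1 and HOL2 were DEGs, where 4.63% of all genes tested were. At 21 °C 2 of 6 passed in hy5-215 roots, both lower, where 43.6% of all genes tested passed, 24.7% higher and 18.9% lower. These were HOL1, a DEG where 3.05% of all genes tested were, and NSP1 at -0.32 ± 0.10, lost with quantile scaling and in 3 of 6 fits without a library. In chl1-5 over Col-0 roots at 28 °C 1 of 6 passed, which was higher, where 9.43% of all genes tested passed, 6.68% higher and 2.75% lower. This was NSP1 at 0.42 ± 0.10, lost when the fit held only the 2 groups compared and in 3 of 6 fits without a library. At 21 °C in chl1-5 roots 1 of 6 was higher, NSP1, where 16.6% of all genes tested were, and 1 of 6 was lower, HOL1, where 11.7% were.

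In shoots at 28 °C, 6 of 8 passed in hy5-215 over Col-0, 3 higher and 3 lower, where 56.1% of all genes tested passed, 25.8% higher and 30.4% lower. TGG2, ESP and NSP1 were higher and the 3 HOL genes lower, and TGG2 and ESP were DEGs, where 1.59% of all genes tested were. TGG2 was at the limit, running from 0.974 to 1.02 with 1 library left out, so its DEG call depended on single libraries. At 21 °C 7 of 8 passed in hy5-215 shoots, 4 higher and 3 lower, where 60.3% of all genes tested passed, 25.7% higher and 34.6% lower. HOL1, HOL2 and TGG1 were lower, and HOL3, TGG2, ESP and NSP1 were the higher ones, by 0.18 ± 0.05, 0.19 ± 0.03, 0.43 ± 0.03 and 0.11 ± 0.03, and NSP1 turned to -0.032 with quantile scaling. The pass of TGG2 was lost with quantile scaling (0.078) and that of HOL3 without Col-0 replicate 1 (0.14). In the shoots labelled chl1-5 at 28 °C, 6 of 8 passed, 3 higher and 3 lower, where 47.7% of all genes tested passed, 23.8% higher and 23.9% lower. TGG1, TGG2 and ESM1 were higher there and the 3 HOL genes lower, with the pass of HOL2 lost without Col-0 replicate 1 (-0.097) and that of HOL1 with quantile scaling (-0.072). At 21 °C 5 of 8 passed in the shoots labelled chl1-5, 3 higher and 2 lower, where 48.5% of all genes tested passed, 20.6% higher and 27.9% lower. HOL2, HOL3 and NSP1 were higher and TGG2 and ESM1 lower, all by less than 0.4 on the log2 scale.

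Levels ordered the 10 genes differently in the 2 organs. RPKM is per kilobase of the whole gene span, introns included, so levels of different genes are per length. In Col-0 roots at 28 °C the order was NSP1 at 434 ± 37.1 RPKM, HOL1 at 126 ± 5.32, HOL2 at 33.5 ± 8.17, then HOL3, TGG4 and TGG5 at 13.9 ± 0.487, 13.2 ± 2.54 and 12.9 ± 2.60, which overlapped. ESM1, TGG1, TGG2 and ESP were near 0. In Col-0 shoots at 28 °C TGG1 at 348 ± 5.38 RPKM and NSP1 at 317 ± 5.64 led, followed by HOL1 at 84.8 ± 4.38, ESM1 at 50.8 ± 1.44, TGG2 at 42.7 ± 1.52, HOL2 at 11.6 ± 0.479, ESP at 5.44 ± 0.157 and HOL3 at 2.82 ± 0.0937. No neighbours in that shoot order overlapped in their libraries, while TGG4 and TGG5 were near 0.

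Root over shoot ratios of the means changed with temperature for HOL2 and NSP1. HOL2 was at 2.41 at 28 °C and 0.0147 at 21 °C in chl1-5, and at 2.88 and 0.0742 in Col-0. In hy5-215 HOL2 stayed a shoot gene at both temperatures, at 0.284 and 0.0858. NSP1 was at 1.06 at 28 °C and 2.07 at 21 °C in hy5-215, and at 1.37 and 2.81 in Col-0. HOL3 was root-weighted everywhere, by 4.80 to 6.56, and ESM1, ESP, TGG1 and TGG2 were shoot genes as TGG4 and TGG5 were root genes.

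The genes most alike in pattern were sought for 1 gene of each branch by Pearson correlation over the 12 group means of log2(RPKM + 1) among 18173 genes, as a description, since the genes share libraries and the 12 points fall into the 2 organs. For HOL2 they were PGL2 (r = 0.944), AT4G25170 (0.935), AT3G23880 (0.934), AT5G56100 (0.933) and AT5G44660 (0.927). PGL2 had 11.2 RPKM in chl1-5 and 10.4 RPKM in Col-0 warm roots, against 4.15 and 4.57 RPKM in the cool roots of the same genotypes. For TGG1 they were PPT2, AT2G04039, AT5G67385 and the carbonic anhydrase genes CA1 and CA2, with r from 0.9995 to 0.9998, and for TGG4 they were AT2G16580, CYP71A14, NAC015, AT3G51360 and AT5G20045, with r from 0.9984 to 0.9987.

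The rest of the pathway was taken from lists of 69 genes with values that act before, beside or after the 10. In roots 51 of them were tested, and 33 higher and 4 lower passed in hy5-215, 8 higher and 30 lower in chl1-5 and 13 higher and 23 lower in Col-0. Of all genes tested, 36.5% were higher and 24.5% lower in hy5-215 roots, 38.3% and 29.1% in chl1-5 roots and 37.0% and 29.2% in Col-0 roots. The median log2 fold changes of the list were 0.39, -0.28 and -0.13, beside 0.05, 0.04 and 0.03 over all genes tested. In shoots 58 were tested, with 40 higher and 11 lower in hy5-215, 25 higher and 28 lower in those labelled chl1-5 and 27 higher and 25 lower in Col-0. Of all genes tested there, 46.8% were higher and 30.4% lower in hy5-215, 49.9% and 28.4% in those labelled chl1-5 and 46.2% and 30.7% in Col-0. The hy5-215 response exceeded that of Col-0 for 34 of 51 in roots and 44 of 58 in shoots, and was lower for 1 and 4, where 9.95% and 27.4% of all genes tested were higher and 10.4% and 22.8% lower, with medians of 0.44 and 0.37 beside 0.01 and 0.0038 over all genes.

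Aliphatic glucosinolate synthesis starts from methionine. In roots, 9 of the 10 genes tested rose in hy5-215 (median 1.16), 10 fell in chl1-5 (median -1.40) and 8 fell in Col-0 (median -0.57). CYP83A1, which oxidises the aldoximes of this branch, had 26.5 ± 3.361 RPKM at 28 °C and 11.1 ± 0.601 RPKM at 21 °C in hy5-215 roots, against 0.904 ± 0.196 and 4.205 ± 1.23 RPKM in Col-0 roots. Its Col-0 log2 fold change was -1.43 ± 0.17 (adjusted p = 2.16e-06) by limma, and the hy5-215 response differed by 2.61 ± 0.24 (adjusted p = 4.43e-06). BCAT4, the first aminotransferase of the methionine chain, and MAM3, a chain-elongating synthase, differed by 2.61 ± 0.20 (adjusted p = 8.23e-07) and 2.58 ± 0.27 (adjusted p = 1.65e-05). MAM3 fell by 1.13 ± 0.19 (adjusted p = 9.31e-05) and CYP79F2, which makes the aldoximes, by 0.96 ± 0.17 (adjusted p = 0.000156) in Col-0 roots. For the root myrosinases TGG4 and TGG5, which act on the products of such pathways, the difference between the hy5-215 and Col-0 responses had the opposite sign.

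In shoots, 14 genes of this branch were tested, and 9 rose and 5 fell in hy5-215, 12 fell in those labelled chl1-5 and 10 fell in Col-0. With quantile or median of ratios scaling the hy5-215 count of genes that rose was 5 and the Col-0 count that fell was 14 or 13. BCAT4 fell by 1.45 ± 0.04 (adjusted p = 3.90e-16), CYP79F1 by 1.16 ± 0.03 (adjusted p = 1.04e-16) and MAM1 by 0.99 ± 0.03 (adjusted p = 8.25e-15) in Col-0 shoots. All 14 had a larger response in hy5-215 than in Col-0 shoots by the test.

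Indolic glucosinolate synthesis, from tryptophan, is the branch whose products release thiocyanate. Of 8 genes tested in roots, 3 higher and 0 lower passed in hy5-215, 0 higher and 5 lower in chl1-5 and 2 higher and 5 lower in Col-0. CYP79B3 fell by 0.90 ± 0.08 (adjusted p = 9.09e-08), CYP79B2, which shares its step from tryptophan to the aldoxime, by 0.81 ± 0.14 (adjusted p = 7.51e-05) and CYP83B1, the next enzyme, by 0.62 ± 0.08 (adjusted p = 5.73e-06) in Col-0 roots. The hy5-215 response was larger for 6 of the 8, among them MYB51, a regulator of the branch, by 1.08 ± 0.23 (adjusted p = 0.00395), CYP79B2 by 0.93 ± 0.19 (adjusted p = 0.00349) and CYP79B3 by 0.80 ± 0.11 (adjusted p = 0.000172). In Col-0 shoots 3 of 7 rose and 4 fell, though 1 rose with median of ratios or quantile scaling. MYB51 fell by 0.85 ± 0.06 (adjusted p = 1.04e-09), CYP83B1 by 0.67 ± 0.03 (adjusted p = 7.40e-13) and CYP79B2 by 0.66 ± 0.04 (adjusted p = 3.50e-11).

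Other specifiers and the lectin-like relatives moved gene by gene. NSP3, adjacent to NSP1 on chromosome 3, had 1.51 ± 0.0856 RPKM at 28 °C and 4.24 ± 0.655 RPKM at 21 °C in Col-0 roots and fell by 1.05 ± 0.07 (adjusted p = 3.28e-09), while NSP4, on the other side of NSP1, rose by 0.58 ± 0.10 (adjusted p = 0.000123). NSP5 had 198 ± 12.2 RPKM at 28 °C and 71.9 ± 2.48 RPKM at 21 °C in Col-0 shoots and rose by 1.44 ± 0.04 (adjusted p = 1.61e-15), as NSP1 did. Of the myrosinase-binding and myrosinase-associated relatives, MBP1 fell in Col-0 shoots to 3.53 ± 0.307 RPKM at 28 °C, against 15.9 ± 0.206 RPKM at 21 °C, by 1.90 ± 0.05 (adjusted p = 8.98e-16). MBP2 rose by 0.80 ± 0.05 (adjusted p = 5.79e-11) in the same shoots, so the 2 binding protein genes parted. GLL23, a GDSL lipase-like gene beside ESP, rose by 0.81 ± 0.07 (adjusted p = 1.05e-07) in Col-0 roots and by 0.57 ± 0.02 (adjusted p = 1.94e-13) in Col-0 shoots, and its root response in hy5-215 was larger by 0.61 ± 0.10 (adjusted p = 0.000735). In Col-0 roots MVP1, another GDSL lipase-like gene beside ESP, rose by 0.42 ± 0.05 (adjusted p = 7.77e-07) and GLIP4 fell by 0.86 ± 0.10 (adjusted p = 1.27e-06). The hy5-215 root response was also larger for GLL22 (0.34 ± 0.08, adjusted p = 0.00785) and AT3G14220 (0.25 ± 0.06, adjusted p = 0.00694).

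The BGLU18 to BGLU33 family, listed here as atypical myrosinases, included the strongest shoot changes of the pathway. Whether each member cuts glucosinolates was not tested. BGLU30 had 24.7 ± 1.28 RPKM at 28 °C and 1.04 ± 0.04996 RPKM at 21 °C in Col-0 shoots and rose by 3.65 ± 0.04 (adjusted p = 1.38e-20). BGLU28 rose by 3.39 ± 0.06 (adjusted p = 4.59e-18), and BGLU25 by 0.55 ± 0.04 (adjusted p = 3.01e-10). In roots, BGLU22 had 398 ± 19.8 RPKM at 28 °C and 195 ± 17.9 RPKM at 21 °C in hy5-215, against 144 ± 8.32 and 176 ± 15.3 RPKM in Col-0. Its response differed by 1.32 ± 0.11 (adjusted p = 1.09e-06) and that of BGLU21, a near copy with which reads may be shared, by 0.87 ± 0.07 (adjusted p = 1.21e-06). In Col-0 roots BGLU22 fell by 0.29 ± 0.08 (adjusted p = 0.00324), BGLU21 by 0.51 ± 0.05 (adjusted p = 2.73e-07), and BGLU30 rose by 1.60 ± 0.26 (adjusted p = 4.93e-05), while the hy5-215 root response of BGLU25 was larger by 0.54 ± 0.08 (adjusted p = 0.00025). In hy5-215 roots BGLU22 rose by 1.03 ± 0.08 (adjusted p = 1.62e-08) and BGLU21 by 0.35 ± 0.05 (adjusted p = 1.92e-05), where TGG4 and TGG5 fell.

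Of 11 genes of the endoplasmic reticulum body and its PYK10 complex tested in roots, 9 higher and 1 lower passed in hy5-215, 1 higher and 6 lower in chl1-5 and 3 higher and 2 lower in Col-0. In shoots 10 rose in hy5-215 and 9 rose and 1 fell in Col-0, led by the lectin gene JAL23 (2.23 ± 0.04, adjusted p = 1.43e-17) and MEB1, a membrane protein gene of the body (0.83 ± 0.05, adjusted p = 6.03e-11), with JAL33 at 0.82 ± 0.02 (adjusted p = 5.09e-16). In Col-0 roots JAL22 rose by 0.91 ± 0.22 (adjusted p = 0.00196) and MEB1 by 0.42 ± 0.04 (adjusted p = 6.89e-07), and JAL35 fell by 0.56 ± 0.14 (adjusted p = 0.00268). The hy5-215 root response exceeded that of Col-0 for JAL33 (0.60 ± 0.13, adjusted p = 0.00592), MEB2 (0.49 ± 0.07, adjusted p = 0.000336) and JAL31 (0.42 ± 0.09, adjusted p = 0.0046).

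Downstream of breakdown, the nitrilase genes NIT1, NIT2 and NIT3, whose products hydrolyse nitriles, rose in Col-0 shoots by 0.83 ± 0.02 (adjusted p = 8.31e-17), 1.00 ± 0.04 (adjusted p = 2.52e-13) and 1.20 ± 0.04 (adjusted p = 4.69e-15). They rose in Col-0 roots too, by 0.49 ± 0.05 (adjusted p = 6.14e-07), 0.56 ± 0.22 (adjusted p = 0.0374) and 0.56 ± 0.06 (adjusted p = 9.21e-07), and they are near copies whose reads may be shared. In hy5-215 roots the response was larger for NIT1 by 0.40 ± 0.07 (adjusted p = 0.00136), for NIT3 by 0.30 ± 0.09 (adjusted p = 0.0247) and for PEN3, an exporter known from indolic glucosinolate defence, by 0.53 ± 0.17 (adjusted p = 0.034). NSP1, the source of simple nitriles, rose in the same shoots, while its value in Col-0 roots was -0.11 ± 0.10. The transporters GTR1 and GTR2 fell in Col-0 roots by 0.27 ± 0.09 (adjusted p = 0.0162) and 0.51 ± 0.09 (adjusted p = 8.90e-05), and in Col-0 shoots GTR1 rose by 0.46 ± 0.02 (adjusted p = 5.02e-12) while GTR2 fell by 0.38 ± 0.04 (adjusted p = 2.40e-08). The hy5-215 root response of GTR2 was larger by 0.70 ± 0.12 (adjusted p = 0.00108).

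**Figure D5:**
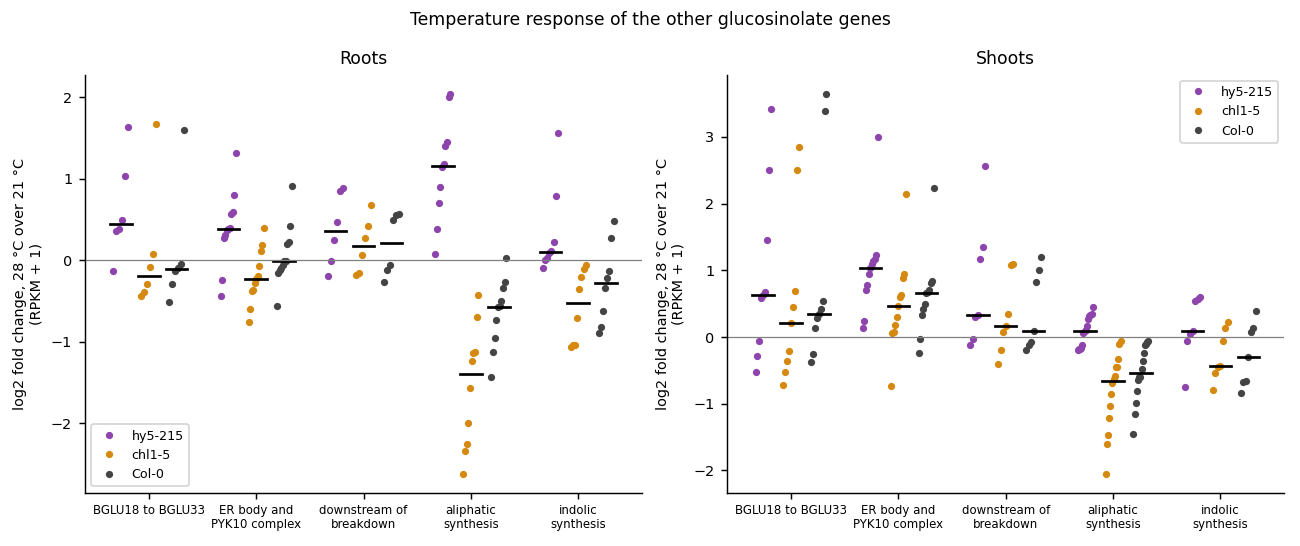
Log2 fold change of 28 °C over 21 °C on the log2(RPKM + 1) scale for the genes of 5 glucosinolate lists in roots and shoots by genotype label, with 1 point a gene and a black bar at the median of the list. The aliphatic list in roots has medians of 1.16 in hy5-215, -1.40 in chl1-5 and -0.57 in Col-0.

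TGG4, TGG5 and ESP lie on chromosome 1, the HOL genes on chromosome 2, ESM1 and NSP1 on chromosome 3 and TGG1 and TGG2 on chromosome 5, and none overlaps another annotated gene. HOL1, HOL2, AT2G43930 and HOL3 follow each other on chromosome 2, TGG2 and TGG1 are parted by 1 gene on chromosome 5, and NSP1 sits between NSP3 and NSP4 on chromosome 3. For HOL1, HOL2, TGG2, ESP and NSP1, the tested genes among the 3 on each side were followed where that gene itself was a DEG. Genes among the 10 were left out as neighbours. This gave 29 tests of 14 neighbours over 7 comparisons. Of these, 19 (65.5%) passed by limma, where 43.6% to 77.3% of all genes tested passed in these comparisons. By unadjusted p under 0.05 the count was also 19, none was a DEG by limma and 6 were by voom on the recovered reads. Next to HOL1 and HOL2, 5PTase12 was lower in hy5-215 than in Col-0 roots, with log2 fold changes of -0.82 (adjusted p = 5.58e-07) at 28 °C and -0.84 (adjusted p = 5.98e-07) at 21 °C by limma. On the same side, AT2G43890 at -0.73 and -0.69 and AT2G43880 at -0.58 and -0.52 were also lower and passed. AT2G43945, on the other side, was at -0.07 at 28 °C and did not pass. What these neighbours share with HOL1 and HOL2 was not tested. AT2G43890 rose by 0.82 (adjusted p = 3.21e-05) in warm chl1-5 roots, where HOL2 rose by 4.49 ± 0.33. In warm Col-0 roots, where HOL2 rose by 4.53, AT2G43890 was at -0.11 (adjusted p = 0.459) by limma and did not pass. AT5G26010, near TGG1 and TGG2, fell by 0.80 (adjusted p = 2.95e-12) in warm Col-0 shoots, as TGG2 did. JAL30, a lectin gene near NSP1, rose by 0.94 (adjusted p = 6.92e-18) in warm hy5-215 shoots, the largest change among these 29 tests.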

How the data were processed

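RNA of 18 root and 18 shoot libraries, 3 for each genotype and temperature, was sequenced on the NovaSeq platform. Per the submitters' processing notes the authors used STAR 2.7.0a, edgeR 3.36.0 and the TAIR10 build, and the matrix as deposited holds RPKM. The counting tool, the annotation release and the handling of reads with several matches are not given in the sources used here. Whole reads came back for 24527 of 24532 genes (tolerance 0.001 reads) with the gene span of the TAIR10.1 RefSeq table as length, for 99.98% of values above 0. Totals were 61.1 to 89.3 M reads in roots and 51.8 to 84.7 M in shoots. No 2 replicates were alike within sampling noise. Their squared differences averaged 1.91 to 30.7 times those of counting alone, so counting error is a sizeable part of the spread in the closest shoot pairs.

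Groups came from the sample labels, which call a pool of roots a biological replicate; for shoots they say nothing more, so p-values measure the spread between these libraries. Differences were fitted on log2(RPKM + 1) with limma 3.58.1 in R 4.3.3, with 1 mean for each of 6 groups of an organ and a trended prior. Benjamini-Hochberg adjustment ran over the 17742 genes (roots) or 16817 genes (shoots) whose mean reached 1 RPKM. The fit was also run on simulated reads with 1 fixed spread for all genes, unlike these libraries, and no result here rests on that run. The study's methods used edgeR on counts, which was not the main test on RPKM. Tables and plots used Python 3.11.15, pandas 2.3.3, numpy 2.4.6 and matplotlib 3.10.9. The alternatives were pseudocounts of 0.1 and 0.5, no filter, a filter of 5 RPKM, median of ratios and quantile scaling, no trend in the prior, fits on the compared groups only, a replicate block, each library left out and, chosen after seeing the data, voom on recovered reads.

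The 10 genes and all lists were chosen with earlier results of these data known. The pathway genes named are, for each list, up to 3 with the largest passing change in Col-0 roots, in Col-0 shoots and in the difference between hy5-215 and Col-0 roots; neighbours named beside a DEG that were not DEGs themselves were chosen after their values were seen. Same-numbered libraries did not deviate together in every pair (residual correlations of -0.274 to 0.286 in roots and -0.262 to 0.479 in shoots), but did in hy5-215 roots (0.137 to 0.208), so the block is given there. BGLU32 and sequences were not analysed here, and names and gene order came from the RefSeq table, whose assembly is not the labelled build, so no coordinates are given.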

Additional observations from a re-analysis of the deposited data

Results flagged for a closer look

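The responses to 28 °C of the following genes passed the limma threshold for the difference between a mutant and Col-0, each given as the mutant response minus that of Col-0 on the log2(RPKM + 1) scale. The genes were chosen with these groups known, so the values are a description. HOL2 passed the filter in roots only through the groups where it is high. No cause was tested. In roots, the hy5-215 difference was -3.72 for HOL2, -0.47 for TGG4, -0.57 for TGG5 and 0.50 for NSP1. In shoots, the hy5-215 difference was -0.44 for HOL2, -0.37 for HOL3, 0.21 for TGG1, 0.81 for TGG2, 0.91 for ESP and 0.44 for NSP1. In the shoots labelled chl1-5, which hold NRT1.1 RNA, it was -0.18 for HOL1 (-0.099 and not passing with quantile scaling), -0.36 for HOL2, -0.50 for HOL3, 0.19 for TGG1, 0.52 for TGG2, 0.21 for ESM1 and -0.27 for NSP1. Groups of 3 libraries are too small for a search for single outlying libraries.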

How the results depend on the processing

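Of the log2 fold changes of the 10 genes under all alternatives, 2119 kept direction and side of the threshold, 48 lost the pass, 6 gained it and 2 reversed. The reversals were in hy5-215 over Col-0 shoots at 21 °C with quantile scaling, at -0.089 for ESM1 (0.01 as reported) and -0.032 for NSP1 (0.11). HOL2 in Col-0 roots ran from 4.35 to 6.17 over the alternatives, and in chl1-5 roots from 4.23 to 7.71. The chl1-5 minus Col-0 difference of HOL2 was 0.21 with a pseudocount of 0.5, 0.95 with 0.1 and 1.54 with voom, against -0.04 as reported.

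Counts of the 10 genes that pass moved in hy5-215 over Col-0 roots at 21 °C to 1 with quantile scaling (2 as reported), in chl1-5 over Col-0 roots at 28 °C to 0 with the compared groups only (1) and in the shoots labelled chl1-5 over Col-0 shoots at 21 °C to 3 with median of ratios (5). Pathway counts moved with the compared groups only to 4 (9) for the chl1-5 minus Col-0 root difference and to 0 (6) for chl1-5 over Col-0 roots at 28 °C. Neighbour counts in this section cover the tested genes among the 3 on each side of all 10 genes. For the chl1-5 minus Col-0 root difference they were 1 with no filter and 1 with the compared groups only (3). For chl1-5 over Col-0 roots at 28 °C they were 1 with no filter, 1 with median of ratios and 0 with the compared groups only (2). A filter of 5 RPKM, which tests fewer genes, left 11 neighbours (18) and 9 (14) in hy5-215 over Col-0 roots at 28 °C and 21 °C, 7 (12) in chl1-5 over Col-0 roots at 21 °C, 16 (25) in warm over cool Col-0 shoots and 6 (11) in the shoots labelled chl1-5 over Col-0 at 21 °C. The other causes were not tested.

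Leaving out 1 library at a time gave 2 to 4 of the 10 genes for the hy5-215 minus Col-0 root difference, 1 to 2 for hy5-215 over Col-0 roots at 21 °C, and for chl1-5 over Col-0 roots 0 to 1 at 28 °C and 1 to 2 at 21 °C. For the chl1-5 minus Col-0 root difference it gave 3 to 12 pathway genes and 1 to 3 neighbours, for chl1-5 over Col-0 roots at 28 °C 2 to 10 and 1 to 4, and for the shoots labelled chl1-5 over Col-0 at 21 °C 6 to 10 neighbours.

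With the replicate number as a block, HOL2 in hy5-215 roots (0.81) and the hy5-215 minus Col-0 root difference of TGG4 (-0.47) no longer passed, so that 5 of the 10 genes passed in warm over cool hy5-215 roots (6) and 3 in the root difference (4), and the block changed no other call of the 10 genes. Quantile scaling moved the share of passing genes that were higher to 48.8% (60.1%) in Col-0 shoots, 47.7% (60.6%) in hy5-215 shoots and 47.9% (59.8%) in warm over cool hy5-215 roots, and for chl1-5 over Col-0 to 43.3% (58.6%) in roots at 21 °C and 50.8% (70.8%) in roots at 28 °C. Median of ratios scaling moved it to 52.1% (63.7%) in warm over cool shoots labelled chl1-5, to 54.6% (42.5%) in the shoots labelled chl1-5 over Col-0 shoots at 21 °C and to 46.4% (58.6%) in hy5-215 over Col-0 roots at 28 °C. The planned comparison of sequences was not run.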
